A study of Homo sapiens with 2 samples.

Results

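The histone cluster genes encode the core histones H2A, H2B, H3 and H4 and the linker histone H1. In the deposited table they carry symbols beginning HIST1H, HIST2H, HIST3H or HIST4H, and every row whose symbol began in this way was taken, with no use of its counts. This gave 90 of the 54261 genes listed, of which 71 are protein-coding and 19 are pseudogenes in RefSeq. By the class in the symbol, 8 members belong to H1, 23 to H2A, 26 to H2B, 17 to H3 and 16 to H4. RefSeq lists HIST1H1PS2, which had no counts, as the H3 pseudogene H3P26. By location, 68 belong to HIST1, of which 66 lie on chromosome 6 and 2, the pseudogenes HIST1H2APS6 and HIST1H2BPS3, on chromosome 13. Of the others, 17 belong to HIST2 and 4 to HIST3 on chromosome 1, and the remaining member is HIST4H4 on chromosome 12.

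The study silenced SRSF2, a serine/arginine-rich splicing factor, in RKO, a human colon carcinoma cell line grown in DMEM with 10% fetal bovine serum. One group received a control siRNA (si-NC) and the other an siRNA against SRSF2 (si-SRSF2), both by transient transfection, and each group was 1 RNA-seq library. No difference between the groups therefore had a replicate check, no test across genes was run, and a difference between these libraries cannot be told apart from the variation between transfections. In bulk RNA, fewer cells that express a gene and less RNA per cell cannot be told apart either.

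The cluster genes differ from almost all other human genes in how their messages are made. Their transcripts have no introns in the classical form and end in a short RNA stem-loop in place of a poly(A) tail. The stem-loop is bound by SLBP and cut with the help of the U7 small nuclear RNA, and the message is made and kept mainly in S phase, when new DNA must be packed. Some members also make longer, polyadenylated transcripts that run past the stem-loop. The libraries here were selected for poly(A), so the counts need not reflect the full pool of histone mRNA. Which histone RNAs carried a tail was not measured.

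The stem-loop was sought as 16 bases that open with GGNNC, carry the loop bases TTTT, any base and an A next to it, and close with GNNCC, on the sense strand, in the 150 bases after each stop codon of GENCODE release 44 on GRCh38. It was found in 68 of the 71 protein-coding members, HIST1H2BI, HIST1H3E and HIST1H4L being without a match in this window. Over all genes, 70 of 19600 such windows (0.357%) held the pattern, and the only 2 outside the clusters were those of H2AFX, the DNA damage histone H2A.X, and TIPARP. The stem-loops below belong to the 4 members with the most counts, to the member with the largest ratio among those with a mean of at least 1 CPM, and to 3 low members described later. Each is printed 5′ to 3′ on the sense strand with the 16 bases of the pattern in capitals and 5 bases on either side.
HIST1H1C: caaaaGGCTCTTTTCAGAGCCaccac
HIST1H2BK: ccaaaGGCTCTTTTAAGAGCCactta
HIST2H2BE: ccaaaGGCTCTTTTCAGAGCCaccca
HIST3H2A: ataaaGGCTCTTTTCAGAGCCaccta
HIST1H2BD: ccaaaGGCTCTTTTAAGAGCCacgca
HIST1H1B: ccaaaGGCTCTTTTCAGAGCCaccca
HIST1H4B: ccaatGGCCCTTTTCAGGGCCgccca
HIST1H4E: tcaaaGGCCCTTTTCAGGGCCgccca

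On GRCh38 these 26-base stretches lie at chr6:26055739-26055764 on the minus strand (HIST1H1C), chr6:27146361-27146386 on the minus strand (HIST1H2BK), chr1:149886183-149886208 on the minus strand (HIST2H2BE) and chr1:228457364-228457389 on the minus strand (HIST3H2A). The others lie at chr6:26158582-26158607 on the plus strand (HIST1H2BD), chr6:27866792-27866817 on the minus strand (HIST1H1B), chr6:26026896-26026921 on the minus strand (HIST1H4B) and chr6:26204996-26205021 on the plus strand (HIST1H4E). All lie in or at the end of the annotated 3′ untranslated region. The stem of the H4 genes differed from that of the other classes. All 14 H4 matches began GGCCC, in 2 forms that 10 and 4 members carried, whereas none of the 54 other matches did. Among the H1, H2A, H2B and H3 members, 41 carried the form seen in HIST1H1C and 10 the form seen in HIST1H2BK. The pattern began 22 to 67 bases after the stop codon, with a median of 35.5 bases, and the median was longest for H2A, at 44 bases.

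**Figure D1:**
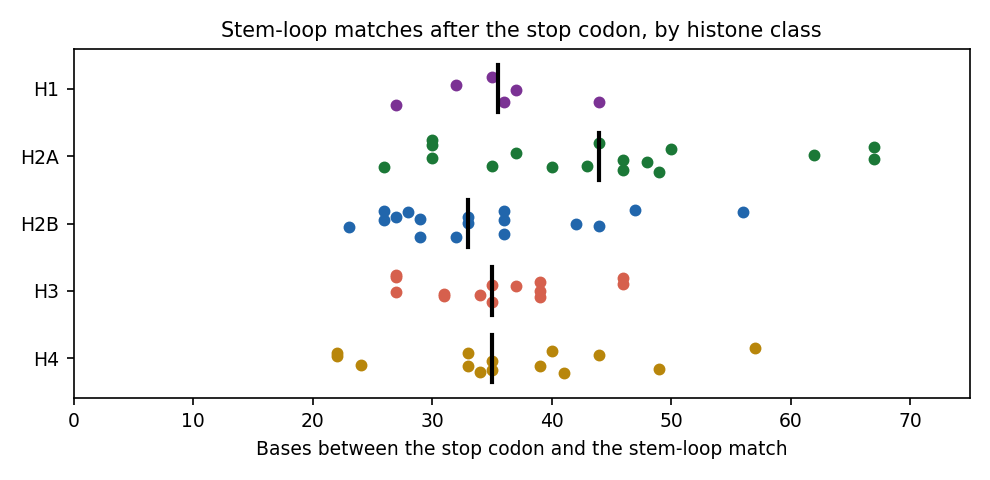
Distance in bases (horizontal axis) from the stop codon to the stem-loop match for the 68 members with a match, by histone class. Each point is a gene, shifted vertically only for visibility, and black bars are class medians, which run from 33 bases for H2B to 44 bases for H2A.

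Promoters of the classes also differed in their letters. In RefSeq's windows of 250 bases before to 50 bases after the start, searched on both strands, CCAAT, the core of the NF-Y box, was present in 35.7% of 27305 promoters of all genes. It was present in all 6 H1, 16 H2A, 18 H2B and 13 H3 promoters matched, and in 3 of the 13 H4 promoters. ATTTGCAT, the octamer bound by OCT1, was present in 1.80% of all promoters, in 11 of 16 of H2A, 14 of 18 of H2B, 1 of 13 of H3 and in none of the H1 and H4 promoters. TATAAA was present in 3264 of all 27305 promoters and in 3 H1, 12 H2A, 12 H2B, 10 H3 and 7 H4 promoters. Some H2A and H2B genes start close together on opposite strands, such as HIST2H2BE at chr1:149886682 and HIST2H2AC at chr1:149886918. The windows of such genes overlap, so 1 site can be counted in both classes. No count of binding goes with these matches.

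Depth differed between the libraries, with 19931360 counts spread over 19882 genes for si-NC and 14512802 over 19467 for si-SRSF2. Counts are given below together with CPM, the TMM-scaled counts at a common library size, which moved either library size by far less than the difference in depth. A gene with 0 counts may lie at up to 0.151 CPM in si-NC or 0.207 CPM in si-SRSF2, the level of 3 counts. For SRSF2 itself, 1964 counts after si-NC stood against 713 after its silencing, which left 49.9% of the control level (98.5 and 49.1 CPM). The colon line expressed KRT8, KRT18, EPCAM and CDX2, with 147 or more counts in each library, while KRT19, VIL1, CDX1 and CDH17 were at 0 to 2 counts and CDH1 at 10 and 6. Of markers of other cells, PTPRC, PECAM1 and ALB were at 0 to 2 counts, COL1A1 at 13 in each library and VIM, which carcinoma lines can express, at 558 and 383.

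Most members of the histone clusters had few counts or none in these libraries. Of the 90, 63 had a count in either library and 27 had none, while 21953 of the 54261 genes listed had a count. Only 14 reached a mean of 1 CPM over both libraries, the filter used for ratios of single genes, and 12620 genes of the whole table did. These 14 were 1 H1, 5 H2A, 7 H2B and 1 H3 gene, and no H4 gene. HIST1H2BC lay just inside the filter with a mean of 1.03 CPM and HIST1H2AI just outside with 0.768. Over all 90 members, the summed count was 1670 after si-NC and 1332 after si-SRSF2, or 83.8 and 91.8 CPM. Expressed as si-SRSF2 over si-NC on the log2 scale, the ratio of these sums was 0.13, with a 95% Clopper-Pearson interval of 0.03 to 0.24. Such intervals cover counting error only, and reads from PCR copies are not independent molecules.

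Most of this RNA came from a few genes. HIST1H1C, HIST1H2BK, HIST2H2BE and HIST3H2A together held 72.0% of the member counts after si-NC and 59.7% after si-SRSF2. Their summed count was 1202 after si-NC and 795 after si-SRSF2, a log2 ratio of -0.14 (interval -0.27 to -0.01), and under upper-quartile scaling the interval (-0.25 to 0.02) held equal levels. The 86 other members summed to 468 and 537 counts, or 23.5 and 37.0 CPM, a log2 ratio of 0.66 (interval 0.47 to 0.84). The sum over all members thus joined a sum of the 4 leading genes close to equal levels and a higher sum of the rest.

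HIST1H1C (ENSG00000187837.4, chr6:26055740-26056470, minus strand), whose product is the somatic linker histone H1-2, was the member with the most counts. It had 506 counts after si-NC and 313 after si-SRSF2, or 25.4 and 21.6 CPM. The si-SRSF2 library was the lower, with a log2 ratio of -0.23 (interval -0.44 to -0.03). HIST1H2BK (ENSG00000197903.8, chr6:27146361-27146855, minus strand), an H2B gene, had 317 and 254 counts, or 15.9 and 17.5 CPM, and its interval of -0.11 to 0.38 held equal levels. Per length of exon in GENCODE, these 2 genes had similar values, HIST1H1C at 34.7 and 29.5 RPKM and HIST1H2BK at 32.1 and 35.4 RPKM in si-NC and si-SRSF2. This similarity rests on the GENCODE length, since HIST1H2BK has 495 exon bases there but a span of 8566 bases in RefSeq. Of HIST1H2BK's 100-base windows, 22.5% recur in another gene, so its reads may be split.

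HIST2H2BE and HIST3H2A are annotated in GENCODE with transcripts that pass the stem-loop. HIST2H2BE (ENSG00000184678.11, chr1:149884459-149886682, minus strand), an H2B gene, has its stem-loop 56 bases after the stop codon in a transcript that continues for 1801 bases past that codon. It had 226 counts after si-NC and 127 after si-SRSF2, or 11.3 and 8.75 CPM. The si-SRSF2 library was again the lower, with a log2 ratio of -0.36 (interval -0.70 to -0.05). HIST3H2A (ENSG00000181218.6, chr1:228434777-228457873, minus strand), an H2A gene, had 153 and 101 counts, or 7.68 and 6.96 CPM, and its interval of -0.52 to 0.23 held equal levels. By GENCODE exon length, they stood at 5.10 and 3.93 RPKM and at 4.15 and 3.76 RPKM, and HIST1H2BH, with 65 and 48 counts, at 7.06 and 7.16 RPKM. The order of these levels rests on that choice of length, since HIST3H2A has 1850 exon bases in GENCODE but a span of 510 bases in RefSeq.

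HIST1H2BD was the member with the largest ratio among the 14. It is an H2B gene (ENSG00000158373.9, chr6:26158122-26171349, plus strand) annotated with an intron after the stop codon. It had 29 counts after si-NC and 74 after si-SRSF2, or 1.46 and 5.10 CPM. The level was 3.50-fold higher in si-SRSF2 by CPM, with an interval of 1.17 to 2.48 on the log2 scale, and the log2 ratio with 0.5 CPM added to both values was 1.52. None of its 100-base windows recurred in another gene. Its gene model overlaps genes annotated on both strands, among them ENSG00000283064 on the opposite strand, and how the counting treated strand is not given in the sources used here, so reads of such neighbours may be included. In the same subcluster, the H2B genes HIST1H2BG, with 26 and 16 counts, HIST1H2BH and HIST1H2BF, with 7 and 13, had intervals that held equal levels.

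**Figure D2:**
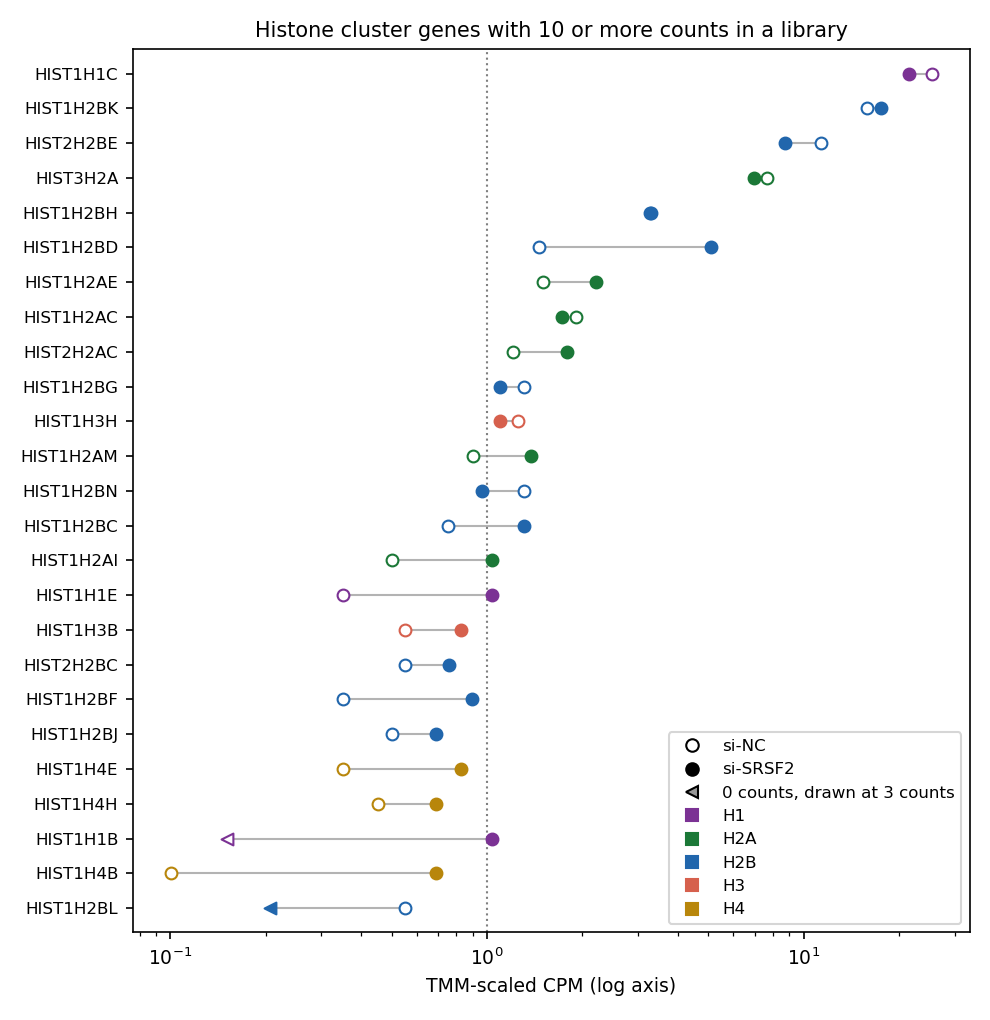
CPM on a log axis in si-NC (open symbols) and si-SRSF2 (filled symbols) for the 25 members with at least 10 counts in a library, coloured by class and ordered by mean, with a dotted line at 1 CPM. Triangles stand for 0 counts and are drawn at the level of 3 counts; HIST1H2BD, at 1.46 and 5.10 CPM, stands apart among the members above the line, while most members below it are higher in si-SRSF2.

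The other members over the filter had few counts and intervals that held equal levels. Among H2A genes, HIST1H2AE had 30 counts after si-NC and 32 after si-SRSF2, HIST1H2AC 38 and 25, HIST2H2AC 24 and 26, and HIST1H2AM 18 and 20. Among H2B genes, HIST1H2BN had 26 and 14 counts and HIST1H2BC 15 and 19. The H3 gene HIST1H3H had 25 and 16. HIST1H2AM and HIST1H2BC were over 1 CPM in si-SRSF2 alone and HIST1H2BN in si-NC alone, so they passed through the library in which they were high.

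Set against all genes that passed the filter, the 14 members did not stand out as a group. Of the 14, 7 had a log2 ratio above 0, while 46.2% of all 12620 genes did. Their median log2 ratio was -0.05 and that of all genes -0.02. HIST1H2BD was the only member at least 2-fold higher (0.848% of all genes were) and no member was at least 2-fold lower (0.499%). The interval lay above equal levels in 1 member, again HIST1H2BD, and in 21.0% of all genes. It lay below equal levels in 2 members, HIST1H1C and HIST2H2BE, and in 26.7% of all genes. A gene's counts set the width of its interval.

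**Figure D3:**
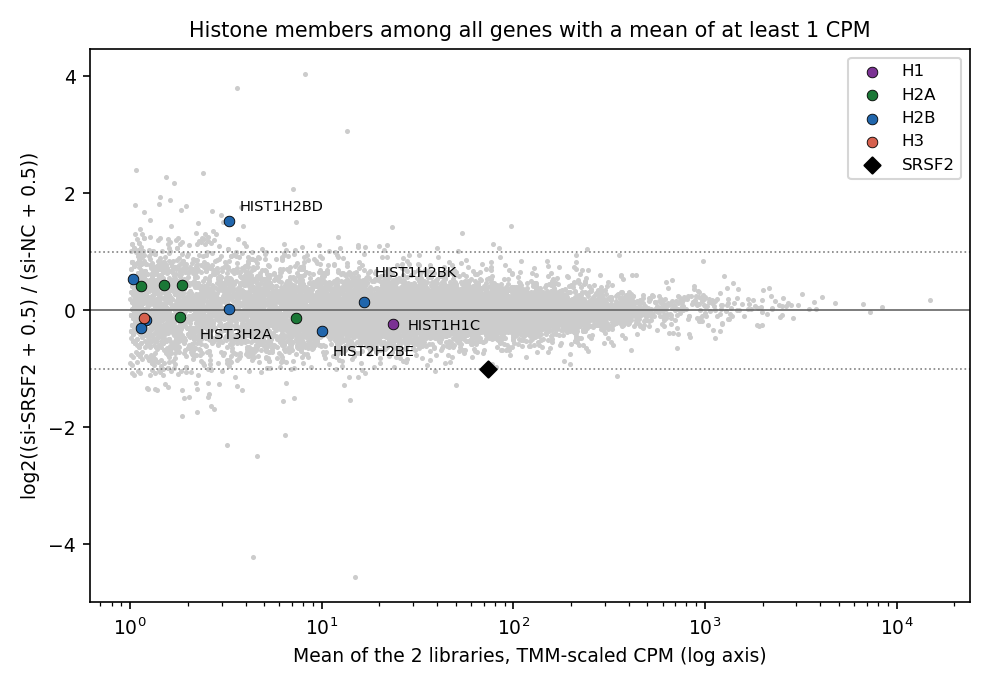
log2 ratio with 0.5 CPM added (vertical axis) against the mean of both libraries in CPM (log axis) for all 12620 genes that passed the filter (grey), the 14 histone members coloured by class and SRSF2 as a diamond. Dotted lines mark 2-fold; HIST1H2BD at 1.52 is the only member beyond them, and the other 13 lie between -0.36 and 0.53.

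The members under the filter were, in sum, higher in si-SRSF2. There were 76 of them, 49 with a count in either library, and no count exceeded 15. Their summed count was 172 after si-NC and 247 after si-SRSF2, or 8.63 and 17.0 CPM, a log2 ratio of 0.98 (interval 0.69 to 1.27). The summed CPM of all 9333 genes under the filter with a count gave 0.20. By CPM, 39 of the 49 were higher in si-SRSF2 and 10 lower, which is 79.6% higher, and 52.8% of the 9333 genes were higher. The interval lay above equal levels in 7 of the 49 and below in 1, where 3.91% and 1.77% of the 9333 did. In 12 of the 49 the si-NC library had no count, and in 6 the si-SRSF2 library had none. Over the whole table, 21953 genes had a count in either library, 19882 of them in si-NC and 19467 in si-SRSF2.

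Among the 7 with an interval above, the linker histone gene HIST1H1B had 0 counts after si-NC and 15 after si-SRSF2, at least 6.87-fold higher when si-NC is set at the limit of 3 counts, with an interval that begins at 2.30 on the log2 scale. HIST1H1E, another somatic H1 gene, had 7 and 15 counts, with an interval of 0.18 to 3.09 on the log2 scale. HIST1H4B had 2 and 10 counts, a ratio of 6.87 with a log2 interval of 0.55 to 6.01. The other 4 had fewer than 10 counts in each library and are named for that interval, after their values were seen. HIST1H3C had 1 and 8 counts, HIST1H2AB 1 and 7, HIST1H2BO 0 and 6 and HIST2H2AB 0 and 5. They included genes of all 5 histone classes. The member with an interval below was HIST1H2BL, an H2B gene with 11 counts after si-NC and 0 after si-SRSF2, at least 2.67-fold lower when si-SRSF2 is set at the limit of 3 counts, with an interval that ends at -0.87 on the log2 scale. Each of these values rests on 15 counts or fewer in either library.

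The remaining low members with 10 counts or more did not differ beyond counting error. HIST1H2AI had 10 counts after si-NC and 15 after si-SRSF2, HIST1H3B 11 and 12, and HIST1H2BF 7 and 13. HIST1H4E had 7 and 12 counts, HIST1H4H 9 and 10, HIST1H2BJ 10 in each library and the pseudogene HIST2H2BC 11 in each. All their intervals held equal levels. HIST1H2AI shares 58.8% of its 100-base windows with another gene and HIST2H2BC all of them.

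By class, H4 gave the sum with the highest ratio, and under TMM scaling the only one whose interval lay above equal levels. Under upper-quartile scaling the intervals of H2A (0.02 to 0.51) and H2B (0.01 to 0.32) lay above them too. H4 forms the centre of the nucleosome together with H3, and no H4 member passed the filter. Its 16 members, 10 of them with counts, summed to 31 counts after si-NC and 57 after si-SRSF2, or 1.56 and 3.93 CPM, a log2 ratio of 1.34 (interval 0.68 to 2.02). By CPM, 9 of the 10 were higher in si-SRSF2, beside 52.8% of all genes under the filter, and HIST1H4I, with 6 and 1 counts, was lower. HIST4H4, the only member on chromosome 12, had 1 and 5 counts. H3, the partner of H4, summed to 64 and 62 counts, a log2 ratio of 0.41 whose interval of -0.12 to 0.94 held equal levels and overlapped that of H4. The difference between the classes was not tested.

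H2A and H2B, which pair with each other in the nucleosome, had larger sums. H2A summed to 296 counts after si-NC and 255 after si-SRSF2, a log2 ratio of 0.24 with an interval from just below 0 to 0.49. H2B summed to 757 and 609 counts, a log2 ratio of 0.14 (interval -0.01 to 0.30). H1 summed to 522 and 349 counts, a log2 ratio of -0.12 (interval -0.32 to 0.07), and HIST1H1C held all but 16 and 36 of these counts. Those 16 and 36 counts, over the 7 other H1 members, gave a log2 ratio of 1.63 (interval 0.74 to 2.58), while HIST1H1C was lower in si-SRSF2.

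The low members of the other classes were summed in the same way. For members under the filter, the log2 ratio of the sums was 1.09 for H2A (33 and 51 counts), 0.56 for H2B (53 and 57 counts) and 0.70 for H3 (39 and 46 counts). Of the members with counts, 10 of 11 of H2A, 9 of 11 of H2B and 8 of 13 of H3 were higher by CPM in si-SRSF2, beside 52.8% of all genes under the filter. The share of H3 was close to that of all genes. The H2B interval began just below 0, or at 0.02 under upper-quartile scaling, and those of H2A and H3 lay above 0.

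By location, HIST1 summed to 1234 counts after si-NC and 1039 after si-SRSF2, a log2 ratio of 0.21 (interval 0.09 to 0.33). HIST2 summed to 277 and 182 counts, a log2 ratio of -0.15 (interval -0.43 to 0.13), and HIST3 to 158 and 106, a log2 ratio of -0.12 (interval -0.49 to 0.25). HIST2H2BE held most counts of HIST2 and HIST3H2A most of HIST3. Within HIST1, the protein-coding genes fall into 3 subclusters when split at gaps of over 500000 bases. The first, chr6:25723397-26285638 with 34 genes, had 786 and 659 counts and a log2 ratio of 0.20 (interval 0.05 to 0.35). The second, chr6:27125897-27147562 with 5 genes, had 342 and 276 counts and a ratio of 0.15 (interval -0.09 to 0.38). The third, chr6:27807479-27893891 with 16 genes, had 100 and 101 counts and a ratio of 0.47 (interval 0.06 to 0.89). The 3 intervals overlapped.

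The length of the annotated transcript can bear on how a histone message enters a poly(A) library. In GENCODE, 13 members have a coding transcript that runs over 300 bases past the stop codon or is spliced after it, 58 have only short coding models, and 19 have none. The 13 extended members summed to 541 counts after si-NC and 401 after si-SRSF2, a log2 ratio of 0.03 (interval -0.16 to 0.21). The 58 short members summed to 1109 and 915, a log2 ratio of 0.18 (interval 0.05 to 0.31). This order depended on the annotation. When members were split at a RefSeq gene span of 1000 bases, the ratio was 0.16 (interval -0.01 to 0.34) for the longer and 0.11 (interval -0.02 to 0.25) for the shorter genes, and both intervals held equal levels. Under the filter, the 51 short members summed to 123 and 206 counts, a log2 ratio of 1.20 (interval 0.87 to 1.54), with 33 of 39 that had counts higher in si-SRSF2, beside 52.8% of all genes under the filter. The 6 extended members there summed to 29 and 25, a ratio of 0.24 (interval -0.59 to 1.07), with 4 of 5 that had counts higher. The members without a coding model had 20 and 16 counts.

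**Figure D4:**
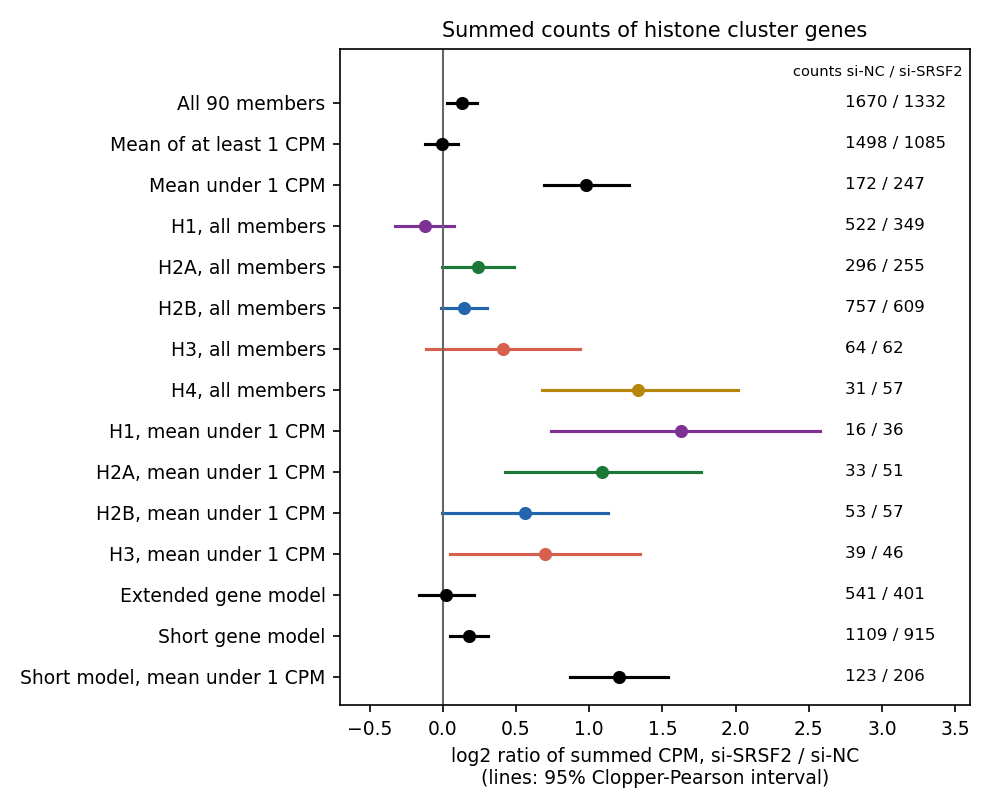
log2 ratio of the summed CPM, si-SRSF2 over si-NC (horizontal axis), for groups of histone cluster genes, with 95% Clopper-Pearson intervals as lines and the summed counts of si-NC and si-SRSF2 at the right. The sum of members with a mean of at least 1 CPM lies at -0.01 and that of members under it at 0.98.

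Sequence shared with near-identical copies or overlapping gene models limits what can be said of single members. In 27 members, at least 20% of the 100-base windows occurred in another gene, among them the H2A pair HIST2H2AA3 and HIST2H2AA4, the H4 pair HIST1H4J and HIST1H4K, and the H3 genes HIST2H3A and HIST2H3C. Others overlap a gene model on the same strand, such as HIST1H2AM and the H3 gene HIST1H3J. HIST2H2AA3 had 1 count after si-NC and 2 after si-SRSF2, and HIST2H2AA4 had 4 and 0. These 27 members summed to 382 and 334 counts, and without them the log2 ratio of the remaining members was 0.09. Its interval of -0.03 to 0.21 held equal levels, which that of all 90 members did not.

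RNAs that lack a poly(A) tail were examined beside the histone genes, since the libraries should hold little of them. Of 26 such RNAs listed, 16 had no count in either library, the U7 RNA gene RNU7-1 among them. The 5 with a mean of at least 1 CPM were all higher in si-SRSF2, where 46.2% of all genes were, but RMRP and RPPH1 were over 1 CPM in that library alone and so passed through the library in which they were high. RMRP, the RNA of RNase MRP, had 10 counts after si-NC and 230 after si-SRSF2, RN7SK, a regulator of transcription elongation, 50 and 357, and RPPH1, the RNA of RNase P, 1 and 104. TERC, the telomerase RNA, had 1 and 14 counts and was under the filter. MALAT1 had 7158 and 6436 counts, a log2 ratio of 0.30, and NEAT1, whose short form is polyadenylated, 19861 and 21824, a log2 ratio of 0.59. The part that the carry-over of RNA without a tail had in the histone values was not tested.

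Replacement histones are encoded outside the clusters. Most are made from polyadenylated mRNA, also outside S phase, while H2AFX carries the stem-loop described above. Of 21 listed, 11 passed the filter, with 4 higher, 7 lower and a median log2 ratio of -0.01, where 46.2% of all genes were higher with a median of -0.02. Under upper-quartile scaling in place of TMM, 7 were higher, where 49.8% of all genes were. Their counts were far above those of the clusters: 28923 and 19912 over the list. H1F0, the linker histone of resting and differentiated cells, had 6122 and 3729 counts, a log2 ratio of -0.26 (interval -0.32 to -0.20). H2AFZ, which encodes H2A.Z, had 4888 and 3225 counts and a log2 ratio of -0.14 (interval -0.21 to -0.08). H3F3B, which encodes H3.3, had 8670 and 6292 counts and a log2 ratio of -0.01 (interval -0.05 to 0.04).

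The other replacement histones included H3F3A, the second gene for H3.3, with 91 and 45 counts and an interval below equal levels. For the following genes the interval held equal levels. H2AFV, a close relative of H2AFZ, had 2971 and 2163 counts, H2AFY, a macroH2A gene, 3335 and 2318, and H2AFY2, the other macroH2A gene, 622 and 470. H2AFX, which carries the same kind of stem-loop as the clusters, had 888 and 640 counts, and H1FX, a linker histone, 952 and 717. CENPA, the centromeric H3, had 362 and 286 counts and H3F3C 22 and 26. H2BFS had 0 counts after si-NC and 1 after si-SRSF2. H2AFJ and the mostly germ-line genes H1FNT, H1FOO, HILS1, H2AFB1, H2AFB2, H2AFB3, H2BFM and H2BFWT were at 0 in both libraries. Shared sequence was measured for cluster members only, so whether reads of replacement histones such as H3F3A were split or lost was not tested.

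Genes for proteins that act on the end of the histone message, some of them general polyadenylation factors, were counted, while RNU7-1 was at 0 in both libraries. Of 25 listed genes of 3′ processing, 24 passed the filter, with 11 higher, 13 lower and a median log2 ratio of -0.02. Of all genes, 46.2% were higher, with a median of -0.02. The interval of the listed genes lay above equal levels in 7 and below in 4, where 21.0% and 26.7% of all genes did. SLBP, the stem-loop binding protein, had 1750 counts after si-NC and 1162 after si-SRSF2, a log2 ratio of -0.13 (interval -0.24 to -0.03). LSM11, a protein of the U7 particle, had 768 and 392 counts, a log2 ratio of -0.50, and WDR33, which binds the polyadenylation signal, -0.32. FIP1L1 at 0.26 and CSTF3 at 0.23, both polyadenylation factors, were the highest of the list. Among 17 genes of histone gene transcription, 4 were higher and 13 lower, with a median of -0.11, where 46.2% of all genes were higher and their median was -0.02. NPAT, the coactivator of histone genes, had 1141 and 687 counts, a log2 ratio of -0.27 (interval -0.41 to -0.14), and CASP8AP2, a partner of NPAT in histone locus bodies, 917 and 626. CCNE2, a cyclin E gene, at -0.41 and MYB, a transcription factor, at -0.31 were the lowest, and the NF-Y subunits NFYC at 0.23 and NFYA at 0.11 the highest. NFYB, the other NF-Y subunit, stood at -0.19.

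Genes of histone mRNA turnover had 8 higher and 10 lower among 18 of 19 that passed, with a median of -0.02, where 46.2% of all genes were higher. ERI1, the exonuclease that trims the end of the stem-loop, had 2041 counts after si-NC and 1019 after si-SRSF2, a log2 ratio of -0.54, and UPF1, a helicase of histone mRNA decay, stood at -0.28. LSM7 at 0.29 and LSM3 at 0.26, subunits of the Lsm ring, were the highest. Among 24 of 25 histone chaperones that passed, 10 were higher and 14 lower, with a median of -0.09. Their interval lay above equal levels in 5 and below in 12, against 21.0% and 26.7% of all genes. NAP1L4, of the NAP1 family, at -0.66 and TONSL, which binds newly made H4, at -0.45 were the lowest, and SUPT16H, a subunit of FACT, at 0.33 and HIRA, a chaperone of H3.3, at 0.19 the highest.

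S phase genes, with which the cluster genes are normally co-expressed, were more often lower than higher in si-SRSF2. Of 43 listed, 42 passed the filter, with 10 higher, 32 lower and a median log2 ratio of -0.13, where 46.2% of all genes were higher. Their interval lay above equal levels in 3 and below in 21, and in 21.0% and 26.7% of all genes. POLA1, the catalytic subunit of DNA polymerase alpha, had 856 and 455 counts and a log2 ratio of -0.45. UNG, a DNA glycosylase, at 0.23 and MCM3, a subunit of the replicative helicase, at 0.11 were the highest. The part of S phase in the histone values was not tested.

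**Figure D5:**
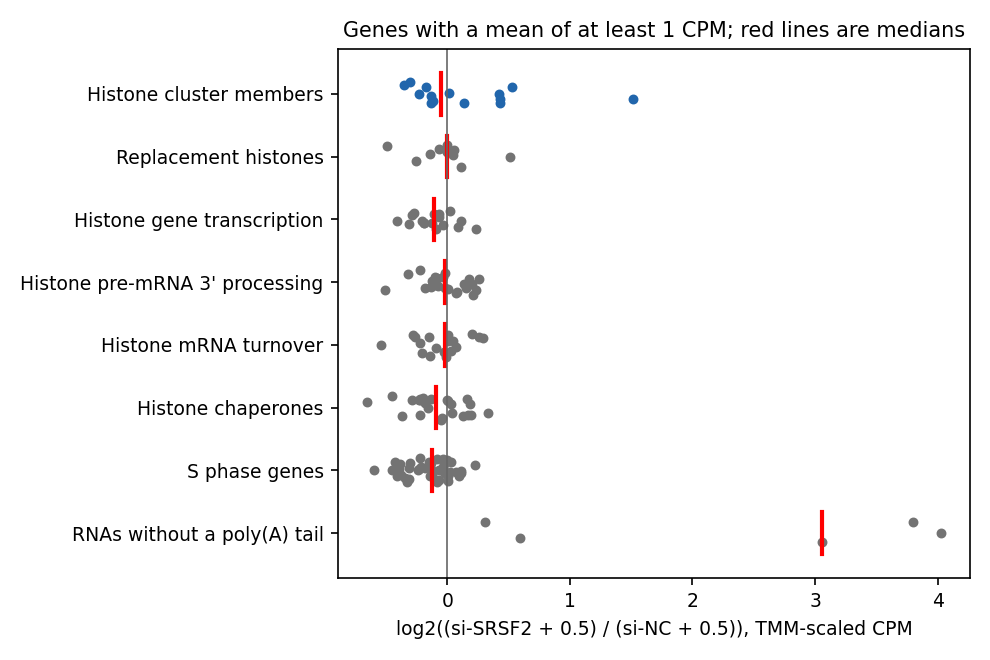
log2 ratio of CPM with 0.5 CPM added, si-SRSF2 over si-NC (horizontal axis), for each gene that passed the filter in the histone clusters (blue) and in the lists of related genes (grey), with list medians in red; points are shifted vertically only for visibility. List medians run from -0.13 for S phase genes to -0.01 for replacement histones, except that of the 5 RNAs without a poly(A) tail, of which RMRP reached 4.03.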

How the data were processed

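The authors prepared stranded poly(A) libraries, read them as 150 bp pairs, aligned the reads to GRCh38 with HISAT2 (2.0.4 per the processing notes) and counted them per gene with HTSeq. They deposited raw counts by gene symbol for 1 si-NC and 1 si-SRSF2 library. HTSeq's version and strand mode are not given in the sources used here, so overlapping genes are uncertain. The methods name an Ensembl annotation, while many symbols have NCBI's LOC form.

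TMM factors came from edgeR 4.0.16 run in R 4.3.3. Ratios of single genes used 0.5 CPM as pseudocount and a mean of at least 1 CPM. Sums used no pseudocount and no filter. Intervals are 95% Clopper-Pearson intervals (SciPy 1.17.1) of the ratio without a pseudocount. RPKM used the union of GENCODE release 44 exons. All 90 symbols were matched through RefSeq's synonyms (GRCh38.p14). Genes named were SRSF2, members over the filter or with 10 or more counts, replacement histones, SLBP, NPAT, CASP8AP2, RNU7-1 and the extremes of each list over 5 CPM. HIST1H4I, HIST4H4, HIST2H2AA3, HIST2H2AA4, RPPH1, TERC, NFYB and low members named for their interval were chosen after their values were seen. The result for 1 gene that this rule names is not reported here. The members and lists were chosen with earlier results of these data known.

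In simulated counts for these libraries, 97.0% of 200 genes changed 4-fold among 12620 were found at least 2-fold changed, 2 unchanged genes were, and 95.3% of intervals held the true ratio. Alternatives were scaling by total counts, by upper quartiles or by DESeq2 1.42.0, other pseudocounts and filters, and sums without leading members, near-identical members or symbols that end as pseudogene names do (some RefSeq pseudogenes, such as HIST2H2BC, stayed in).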

Additional observations from a re-analysis of the deposited data

How the results depend on the processing

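Under scaling by total counts, upper quartiles or DESeq2, the summed log2 ratio of the histone clusters kept its direction (0.13 to 0.16), as did that of members under 1 CPM (0.98 or more). With 1 library per group no sample could be left out, and most members had 15 counts or fewer. No paired analysis was possible because there was a single library per group. The interval came to hold equal levels for all members without those that share sequence, for short gene models under RefSeq spans, and for the 4 leading members under upper-quartile scaling. Leaving out members moved the sums. Without the member with the most counts, the log2 ratio was 0.27 over all members, 1.63 for H1, 0.56 for H2A and 0.45 for HIST1. It was 0.57 (interval -0.01 to 1.15) for HIST2 and 0.46 (interval -1.66 to 2.58) for HIST3, and both intervals held equal levels. With that member, H1, HIST2 and HIST3 lay below 0, with intervals that held equal levels too. Alternatives added after seeing the data gave a log2 ratio of 0.66 over all members without the 4 with the most counts. Short gene models without HIST1H1C and HIST1H2BK gave 0.74.

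Without the filter, 46 of 63 members had a ratio above 0 (49.0% of all genes with a count), 2 were at least 2-fold higher (1.09%), 1 at least 2-fold lower (0.497%), 8 had an interval above equal levels (13.7%) and 3 below (16.1%). With a mean of at least 5 CPM, 1 of 4 members was higher (44.7% of all genes), 0 were at least 2-fold higher (0.248%), 0 had an interval above (21.9%) and 2 below (29.9%). Upper-quartile factors gave 7 higher replacement histones in place of 4 (49.8% of all genes in place of 46.2%). Without the filter, 9 RNAs without a poly(A) tail, 3 intestinal markers and 1 marker of other cells were higher, since more genes were counted. A pseudocount of 2 CPM took the log2 ratio of HIST1H2BD from 1.52 to 1.04.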
